A study of Homo sapiens with 37 samples.

Results

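This section describes RNA recovered near eIF4A in cells treated with hippuristanol, set against total RNA of cells given the same treatment. The samples are the 2 streptavidin pulldowns and the 2 inputs whose titles name hippuristanol, which makes 4 libraries of the 37 in the series. All came from HEK293T, a human embryonic kidney cell line, carrying APEX-eIF4A. APEX is a peroxidase that tags nearby RNA with biotin-phenol, here 500 µM for 30 min followed by 1 mM H2O2 for 1 min. The pulldown is the biotinylated RNA held on streptavidin beads and the input is RNA before that enrichment. The groups used for comparison carried the same construct: T0, whose stress label reads naive, and T20, labelled as heat shock, with 2 pulldowns and 2 inputs each, T4, also labelled as heat shock, with 1 pulldown and 1 input, and DMSO with 2 pulldowns and 1 input. All these libraries stand in one count table of 17 libraries, called the stress table here; 2 inputs and 2 pulldowns of unstressed APEX-eIF4A cells stand in a second table of 20 libraries, called the naive table. The other libraries of that table are 2 inputs and 2 pulldowns each of unstressed cells carrying APEX-eIF4E, APEX-GFP, C1-APEX or APEX-CBX1, used here only for the share of counts in a set of IDs. The titles of both hippuristanol inputs name hippuristanol while their stress label reads heat shock, and they were grouped by title. The sources used here give neither the dose and duration of hippuristanol nor the unit of T.

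eIF4A is the RNA helicase of the cap-binding initiation complex eIF4F, where it works with the cap-binding protein eIF4E and the scaffold eIF4G. It unwinds structure in the leader of an mRNA so that the small ribosomal subunit can load and scan. Hippuristanol is a steroid from a coral that blocks RNA binding by eIF4A, and eIF4A inhibition is known to lower initiation and to induce stress granules.

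The files give genes by versioned Ensembl ID, and 0 of 60483 IDs could be paired with a symbol through the gene table used here. Genes are therefore described by ID, level and behaviour, 4 of them by name of the ID, and the HEK293T label could not be checked against marker genes. The hippuristanol inputs held 6896137 and 7782943 counts and the pulldowns 850907 and 1070338. A level is given as CPM, a library's counts scaled to a fixed total, after TMM scaling, a correction for differences in library make-up. An ID was called when its edgeR adjusted p lay under 0.05 over all 16678 IDs tested in the stress table. No label says that replicates were separate cultures, so a p-value measures how far these libraries spread, and that spread may be technical.

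A small set of RNAs stood far above input in the hippuristanol pulldown. In the pulldown 41 IDs were higher, 0.246% of those tested, and 1 was lower, 0.006%. The higher IDs had log2 fold changes of 1.76 to 12.22 with a median of 7.42, whereas the median over all tested IDs was -0.36 with quartiles of -1.25 and 0.32. Of all tested IDs 30.1% had a fold change below -1 and 11.4% above 1 on that scale, nearly all of them not called, at a median standard error of 1.36. All 41 had both pulldowns above both inputs. The calls were made on the same libraries and favour that ordering, so it is no separate support. Of all tested IDs 11.8% showed it, while 36.4% showed the reverse. In both directions together 0.252% of IDs were called. Without any adjustment 960 IDs had an edgeR p under 0.05, which is 5.76% of those tested. Changes are relative to the TMM reference: scaling by library size moved the median of all tested IDs to -0.83 and called 32 higher and 24 lower. The 41 IDs kept a positive fold change under that scaling, from 1.28 to 11.75, and 32 of them were called.

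**Figure D1:**
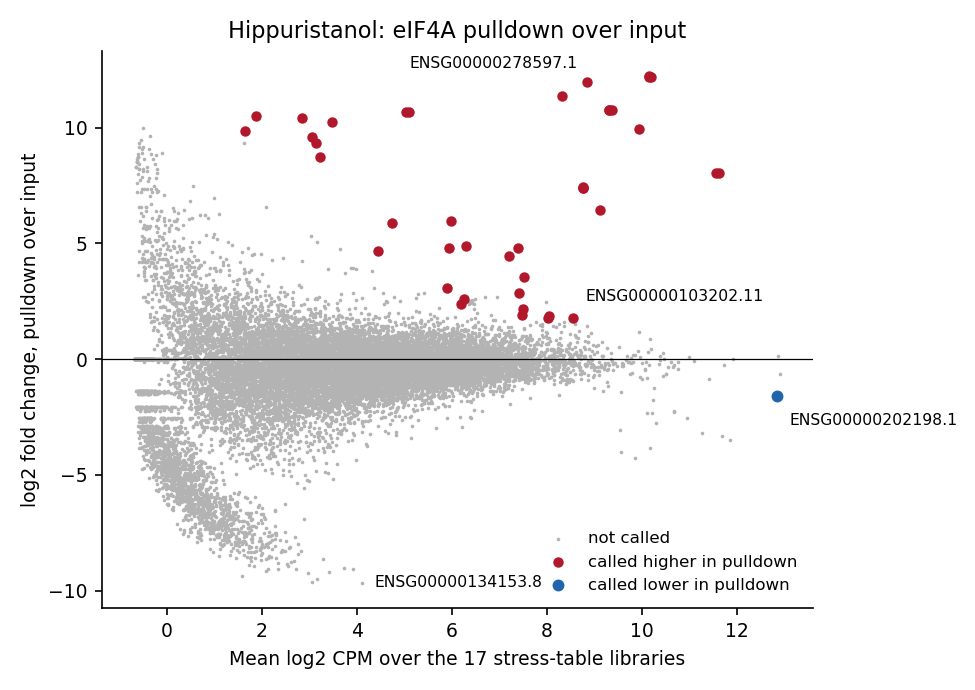
Each point is 1 of 16678 IDs, with its mean log2 CPM over the 17 stress-table libraries on the horizontal axis and the log2 fold change of hippuristanol pulldown over input on the vertical axis. The 41 red IDs, called higher, lie between 1.76 and 12.22, and the single blue ID, called lower, lies at -1.58 among the most abundant IDs; points in the lower left are IDs with few or no pulldown counts.

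The 41 IDs fell into 4 classes by their input level and fold change. These classes were drawn after the values were seen and describe the list. The first held 9 IDs that stayed below 1 CPM in both inputs and reached a mean of 29.8 to 865 CPM in the pulldowns. Of these, 3 had no count in either input and 18.3 to 57.9 CPM in single pulldowns, which makes them at least 180-fold to at least 279-fold higher against a floor of 3 counts over both inputs.

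The second class held 15 IDs with a log2 fold change above 6 and at least 1 CPM in an input. Their inputs averaged 5.89 to 172 CPM, with a median of 15.4, and their pulldowns 4894 to 71782 CPM. The third class held 9 IDs with log2 fold changes of 3.08 to 5.95, at 4.09 to 62.4 CPM in inputs and 81.4 to 1160 CPM in pulldowns. The fourth held 8 IDs with log2 fold changes of 1.76 to 2.83. These last measured 31.9 to 236 CPM in the inputs and 166 to 808 CPM in the pulldowns.

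Some of the 41 IDs may share reads. In 4 sets, together 10 IDs, members had counts within 10% of each other in each of the 9 stress-table pulldowns. Near-identical gene copies can divide reads in this way, and how reads matching more than 1 gene were counted is not given in the sources used here. Counting each set as 1 entry left 35 entries. IDs that share reads in unequal parts would not be linked by this rule, so fewer than 35 may be separate.

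ENSG00000278597.1 had the largest fold change and belongs to such a set. It measured 18.8 and 10.4 CPM in the hippuristanol inputs, from 152 and 104 counts, and 79793 and 59574 CPM in the pulldowns, from 57913 and 58603 counts. Both pulldowns lay far above both inputs, by 4775-fold in the fit. The log2 fold change was 12.22 ± 0.44 (SE; edgeR adjusted p = 2.77e-14).

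The same ID was called higher at T0, at T20 and in DMSO. It averaged 8.71 CPM in the DMSO input and 57061 ± 449 CPM in the DMSO pulldowns, 20.04 ± 4.85 and 116198 ± 55335 CPM at T0, and 5.76 ± 0.554 and 49924 ± 4642 CPM at T20 (SD, n = 2 except the single DMSO input). In log2 units the enrichment under hippuristanol differed from that of DMSO by -0.45 ± 0.45, from T0 by -0.28 ± 0.40 and from T20 by -0.85 ± 0.40 (SE; edgeR adjusted p = 1.00, 1.00 and 0.963). In the naive table its direction turned with the scaling. With TMM its level was 22159 and 20036 CPM in the 2 eIF4A inputs and 14917 and 13071 CPM in the 2 pulldowns (log2 fold change -0.59 ± 0.18, SE; edgeR adjusted p = 0.0913). As a plain share of library counts it was 1.58% and 1.51% in the inputs and 1.80% and 1.79% in the pulldowns, so that both pulldowns lay above both inputs (log2 fold change 0.22 ± 0.11 with library size, SE; edgeR adjusted p = 0.116).

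ENSG00000103202.11 had the highest mean input level of the 41 IDs and so its fold change rests on large counts in both fractions. It measured 269 and 203 CPM in the hippuristanol inputs, from 2180 and 2032 counts, and 911 and 704 CPM in the pulldowns, from 661 and 693 counts. The lower pulldown was above the higher input, and the log2 fold change was 1.77 ± 0.35 (SE; edgeR adjusted p = 0.0291). The call was lost without any 1 of the 4 libraries (log2 fold change 1.58 to 1.99) and with library size in place of TMM (1.30, edgeR adjusted p = 0.193).

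Its log2 fold change was 1.76 ± 0.46 in DMSO, -0.09 ± 0.35 at T0 and 0.48 ± 0.35 at T20 (SE; edgeR adjusted p = 0.152, 0.969 and 0.603), none of them called. The DMSO pulldowns averaged 754 ± 319 CPM (SD, n = 2) over 223 CPM in the single input, whereas T0 gave 333 ± 31.0 CPM in pulldowns and 354 ± 140 CPM in inputs (SD, n = 2). At T20 the pulldowns averaged 403 CPM with a SD of 0.375 and the inputs 290 ± 52.1 CPM (n = 2). The hippuristanol enrichment minus that of T0 was 1.86 ± 0.49 log2 units, minus that of T20 1.30 ± 0.49 and minus that of DMSO 0.02 ± 0.54 (SE). None of these differences passed (edgeR adjusted p = 1.00, 0.963 and 1.00).

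ENSG00000202198.1 was the one ID called lower in the hippuristanol pulldown, and one of the most abundant RNAs of the inputs. It measured 9462 and 10703 CPM in the inputs, from 76602 and 106948 counts, and 2740 and 4026 CPM in the pulldowns, from 1989 and 3960 counts. Both pulldowns were below both inputs, and it fell by 1.58 ± 0.32 on the log2 scale (SE; edgeR adjusted p = 0.0291). The call was lost in 9 of 13 other settings, among them each of the 4 fits with 1 library left out (log2 fold change -1.32 to -1.88).

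ENSG00000202198.1 was also called lower in DMSO, at T20 and in naive eIF4A, and not at T0. The log2 fold change was -1.71 ± 0.36 for DMSO, -1.18 ± 0.31 for T0, -2.70 ± 0.33 for T20 and -2.82 ± 0.24 for naive eIF4A (SE; edgeR adjusted p = 0.0423, 0.160, 4.45e-05 and 7.36e-09). Its hippuristanol value differed from that of T20 by 1.12 ± 0.44 log2 units (SE; edgeR adjusted p = 0.963). The T0 and T20 inputs averaged 21528 ± 3664 and 19687 ± 4914 CPM (SD, n = 2), against 10083 ± 878 CPM in the hippuristanol inputs.

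ENSG00000134153.8 had the lowest fitted fold change of the tested IDs with at least 20 CPM in an input and did not pass the test. It had 182 and 293 counts in the hippuristanol inputs, or 22.5 and 29.3 CPM, and no count in either pulldown. Against a floor of 3 counts over both pulldowns, or 1.75 CPM, it was at least 14.8-fold lower (edgeR adjusted p = 0.0936). DESeq2 and limma voom called it (adjusted p = 0.00273 and 0.0124).

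All other eIF4A pulldowns in the stress table counted ENSG00000134153.8. The level was 30.2 ± 1.27 CPM in DMSO, 26.7 ± 6.10 at T0 and 32.3 ± 19.4 at T20 (SD, n = 2), and 11.9 CPM in the single T4 pulldown. The hippuristanol pulldowns therefore lay below all 7 others. The ID was chosen for its low hippuristanol fold change, which the same 0 counts set, so this contrast is no independent support. IDs with at least 20 CPM in the inputs and 0 in both pulldowns numbered 2 under hippuristanol. They numbered 39 at T0, 32 at T20 and 91 in DMSO. The differences in enrichment from DMSO, T0 and T20 did not pass (edgeR adjusted p = 0.902, 1.00 and 0.963; unadjusted p = 0.0029, 0.00234 and 0.000875).

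**Figure D2:**
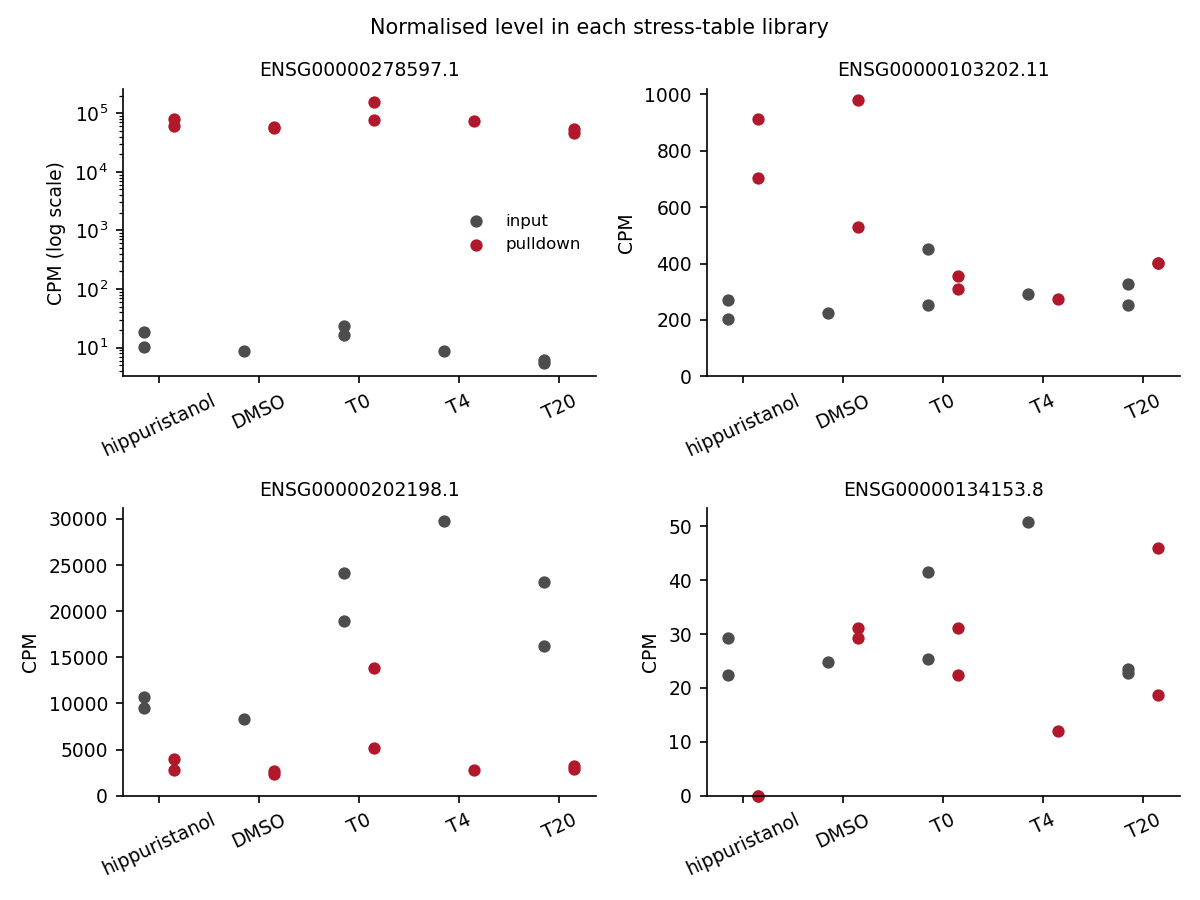
CPM of the 4 named IDs in each stress-table library, inputs in grey and pulldowns in red, 1 point per library; the axis of ENSG00000278597.1 is logarithmic and the other axes start at 0. ENSG00000278597.1 is far above input in the 5 conditions drawn, ENSG00000103202.11 has both pulldowns above input in hippuristanol, DMSO and T20 and not at T0 or T4, ENSG00000202198.1 is below the mean of its inputs in the 5 conditions, and ENSG00000134153.8 is at 0 in the 2 hippuristanol pulldowns and above 0 in the other 7.

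Most of the 41 IDs were also called higher in the other stress-table conditions. They numbered 34 at T0, where 0.3% of tested IDs were called higher, 0.06% lower and 0.36% in all. At T20 they numbered 34, where 0.252% were higher, 0.12% lower and 0.372% in all. In DMSO they numbered 28, where 0.174% were higher, 0.126% lower and 0.3% in all. These comparisons used separate inputs and pulldowns, but they share the scaling and the estimate of spread. The shared calls were 82.9% of the hippuristanol list for T0 and T20 and 68.3% for DMSO. Counted from the other side they were 68.0% of the T0 list, 81.0% of the T20 list and 96.6% of the DMSO list. The median log2 fold change of the 41 IDs was 7.42 in hippuristanol, 8.40 at T0, 7.29 at T20 and 6.63 in DMSO. Since the 41 IDs were chosen by their hippuristanol values, these medians do not compare the conditions on equal terms. In all 4 conditions 28 IDs were called.

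The 15 IDs of the strongest class were called higher in 15 of 15 cases at T0 and T20 and in 13 of 15 in DMSO. The 9 IDs of the class nearly absent from inputs were called in 8 cases at T0 and 7 each at T20 and in DMSO. Of the 8 IDs with the smallest fold changes 2 were called at T0, 4 at T20 and 2 in DMSO. Their medians there were 1.52, 2.01 and 2.10, against 2.04 under hippuristanol.

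Of the 41 IDs, 5 were called under hippuristanol and in none of the other 3 conditions. Their log2 fold changes ran from 1.77 to 9.85 under hippuristanol. The 9.85 is a fitted value (SE 2.01) of an ID with no count in either hippuristanol input. Against the floor of 3 counts over both inputs it was at least 7.49. The same ID gave the highest fitted value at T0, at T20 and in DMSO. In the other conditions the fold changes of the 5 IDs ran from -0.09 to 9.68 at T0, 0.48 to 4.21 at T20 and 1.19 to 9.22 in DMSO. Of the 5 IDs, 4 were positive in all 3. The difference itself was not called for any of them.

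No ID was called when the hippuristanol enrichment was tested against that of another condition. The edgeR count was 0 of 16678 for T0, T20 and DMSO alike, with 681, 809 and 919 IDs at an unadjusted p under 0.05, or 4.08%, 4.85% and 5.51% of those tested. The smallest adjusted p values were 1.00, 0.963 and 0.902. DESeq2 called 3, 2 and 23 IDs, and limma voom called 0 in each. With the replicate number as a block edgeR called 1, 1 and 41, those against DMSO all higher under hippuristanol. Their overlap with the 41 IDs called higher over input was not examined, and the equal count does not make them the same list. In that fit the DMSO enrichment rests on 1 input and 1 pulldown. Replicate numbers are not known to pair the samples. Over the 41 IDs called higher over input the difference in log2 enrichment had a median of -0.26 from T0, 0.48 from T20 and 0.25 from DMSO. These IDs were chosen by their hippuristanol enrichment, which is 1 side of each difference, so that choice may tilt the medians. The median standard error of such a difference over all tested IDs was 1.98, 1.94 and 2.17, and over the 943 most abundant IDs, with a mean log2 CPM of 7 or more, 0.56, 0.56 and 0.63.

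The fold changes of the 41 IDs were far smaller in the naive eIF4A pulldowns, and their sign there depended on the scaling. With TMM, of the 38 tested there, 3 were called higher, where 1.16% of the 12427 IDs tested in the naive table were, and 13 were called lower, where 1.02% were and 2.18% were called in all. The median log2 fold change of the 38 was -0.76, with 27 below 0 and 11 above. All 14 tested IDs of the strongest class lay below 0, from -0.54 to -1.34, and all 7 of the class nearly absent from inputs, from -0.84 to -1.39. The 9 IDs of the third class had a median of 0.20, with 3 called higher and 1 lower, and the 8 with the smallest hippuristanol fold changes a median of 0.05 with none called by edgeR.

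Scaling by library size moved the naive median over all tested IDs from 0.02 to 0.82 and that of the 38 IDs from -0.76 to 0.03, with 23 above 0 and 15 below. The strongest class then had 7 IDs above 0 and 7 below, from -0.53 to 0.26. The class nearly absent from inputs stayed below 0 in 7 of 7, from -0.58 to -0.05. The third class had a median of 1.02 and the fourth 0.86. With this scaling 14 of the 38 IDs were called higher and 5 lower, where 3886 and 54 of all 12427 tested IDs were. The higher calls were 7 of 9 IDs in the third class and 7 of 8 in the fourth. The lower calls were 4 IDs of the strongest class and 1 of the class nearly absent from inputs. With either scaling the naive fold changes of the 38 IDs did not exceed 2.24. The 2 tables were scaled separately, so no test was made between them.

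**Figure D3:**
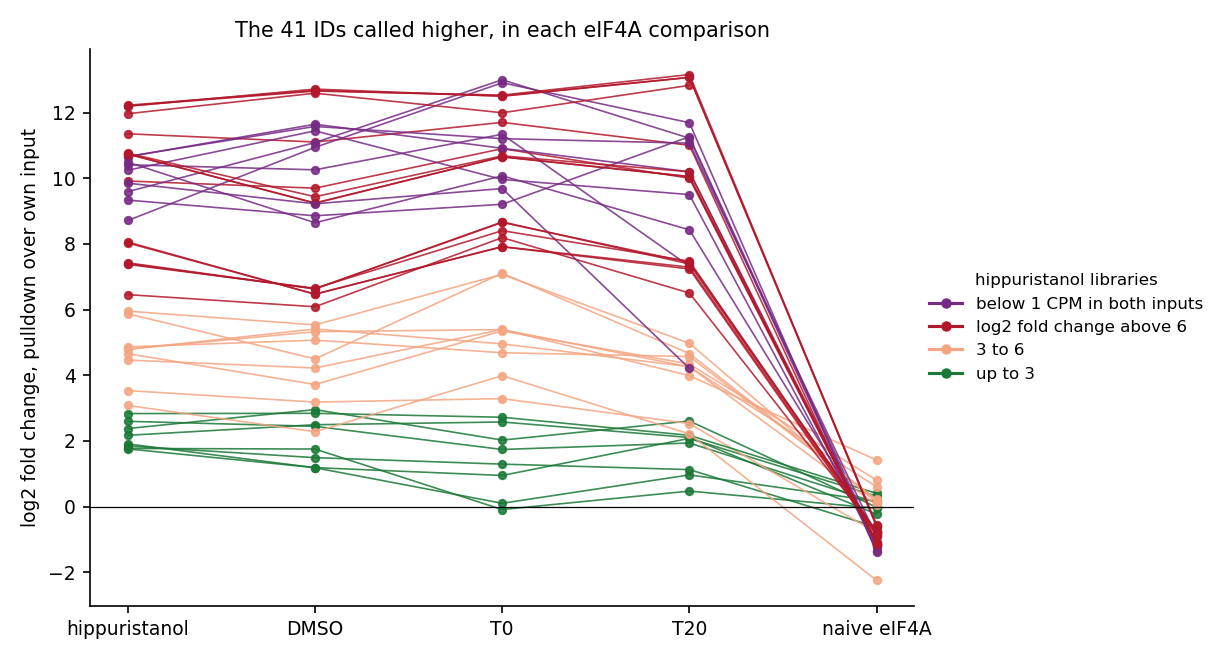
The log2 fold change of pulldown over own input is shown for the 41 IDs called higher under hippuristanol, with 1 line joining the values of an ID over 5 comparisons; 3 IDs have no naive value. Colours give the 4 classes; most lines stay high in hippuristanol, DMSO, T0 and T20, and the 38 naive values lie between -2.24 and 1.42 with the TMM scaling drawn, or -1.48 and 2.24 with library size.

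The inputs of the 2 tables held very different amounts of these RNAs. The 41 IDs took 40.0% ± 3.40 of counts in the hippuristanol pulldowns and 0.200% ± 0.0418 in the hippuristanol inputs (SD, n = 2). Over the stress table the share ran from 31.1% to 58.5% in the 9 pulldowns and from 0.171% to 0.236% in the 8 inputs. In the naive table it was 12.97% to 14.2% in the 10 inputs and 11.7% to 13.7% in the 10 pulldowns, with 14.2% ± 0.0133 in eIF4A inputs and 13.5% ± 0.0495 in eIF4A pulldowns (SD, n = 2).

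For the strongest class the median level of a library was 8.49 to 30.3 CPM in stress-table inputs but 11260 to 11404 CPM in naive eIF4A inputs. The 8 IDs with the smallest fold changes did not show this gap, with medians of 77.9 to 122 CPM in stress-table inputs and 69.7 to 76.7 CPM in naive eIF4A inputs. The class nearly absent from inputs had medians of 0 to 0.439 CPM in stress-table inputs. Its 7 IDs tested in the naive table had 108 to 120 CPM in naive eIF4A inputs. The third class had 7.51 to 17.9 CPM against 310 to 335 CPM. Every class but the fourth therefore had far lower levels in stress-table inputs than in naive eIF4A inputs. Whether the stress-table inputs were prepared differently from the pulldowns is not given in the sources used here, and the part of that in the fold changes was not tested.

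**Figure D4:**
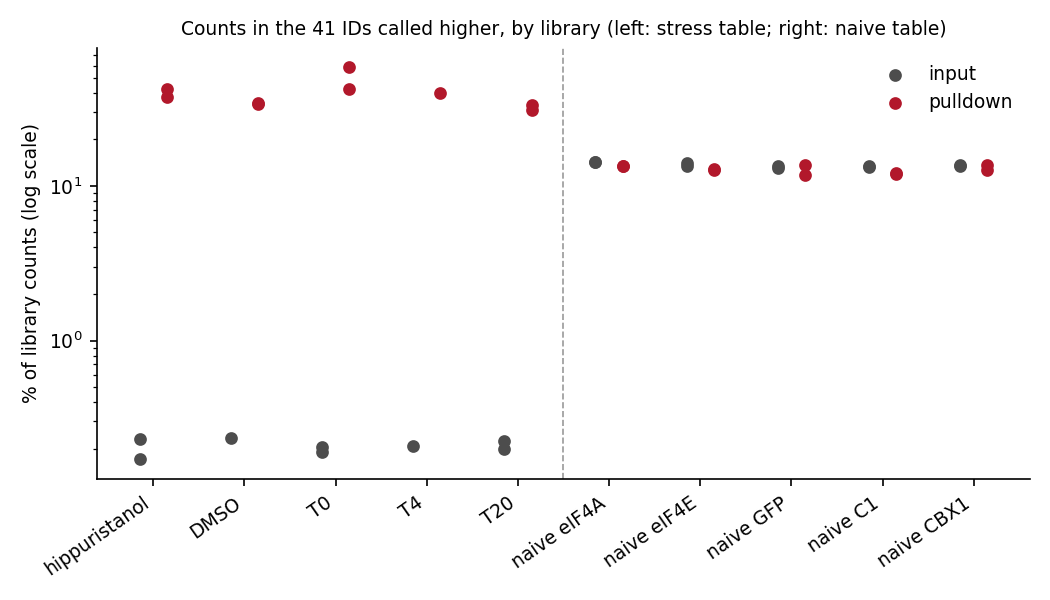
The share of each library's counts that fell on the 41 IDs is plotted on a log scale, 1 point per library, inputs in grey and pulldowns in red, stress table left of the dashed line and naive table right of it. Stress-table inputs lie at 0.171% to 0.236% and pulldowns at 31.1% to 58.5%, while all naive libraries lie at 11.7% to 14.2%.

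Over the 4336 uncalled IDs that averaged 5 or more in log2 CPM, the mean pulldown level correlated with the mean input level at r = 0.774, a value across IDs, which are not independent replicates. The log2 fold change of these IDs had a median of -0.19 and quartiles of -0.63 and 0.26; 5.35% were above 1 and 10.01% below -1. With the called IDs included, both pulldowns lay above both inputs for 18.3% of 4369 IDs and below both for 34%.

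The profile of fold changes was set against those of the other conditions. Over the 4336 IDs, hippuristanol fold changes correlated at r = 0.438 with T0, 0.517 with T20 and 0.460 with DMSO. Over 4327 IDs also tested in the naive table the value was 0.170 with naive eIF4A. These are descriptions across IDs; the first 3 share a scaling and a fit, and the naive value comes from another table.

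Precision depended strongly on abundance. The median standard error of the log2 fold change was 0.40 for 943 IDs with a mean log2 CPM of 7 or more, 0.69 for 3426 IDs between 5 and 7, 1.24 for 4924 IDs between 3 and 5 and 1.61 for 4408 IDs between 1 and 3. Of the 41 higher calls, 24 came from the first of these classes, 8, 6 and 3 from the next ones and 0 from the 2977 IDs below 1. The single lower call came from the most abundant class. This mean level includes the 9 pulldowns, so an ID can count as abundant through the pulldown values that were tested. ENSG00000275110.1, for example, had 7.91 and 4.20 CPM in the hippuristanol inputs and a mean log2 CPM of 8.86. The spread of calls over these classes therefore does not show what abundance contributed to the calls.

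The pulldown replicates correlated less well than the inputs. Over 4369 IDs the 2 hippuristanol pulldowns correlated at 0.740 and the 2 inputs at 0.921. Of 7082 IDs with at least 20 CPM in both inputs, 2 had no count in either pulldown, ENSG00000134153.8 among them, and 242 had no count in 1 of the pulldowns. In 235 of those 242 the empty library was pulldown replicate 1. At the input's level each would have given at least 14.5 counts in a pulldown.

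Conversely, 83 IDs had at least 20 counts in pulldown replicate 1 and none in replicate 2, and 294 the reverse, against 3 and 15 in the inputs. At an equal depth of 707356 counts, pulldown replicates 1 and 2 would detect 12329 and 15681 IDs and the inputs 17510 and 18194. Without the 41 called IDs, at 293809 counts, the numbers were 11882 and 14867 against 15204 and 15694. Other stress-table pulldowns gave fewer IDs than hippuristanol replicate 2, from 11102 to 13608 at 707356 counts.

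**Figure D5:**
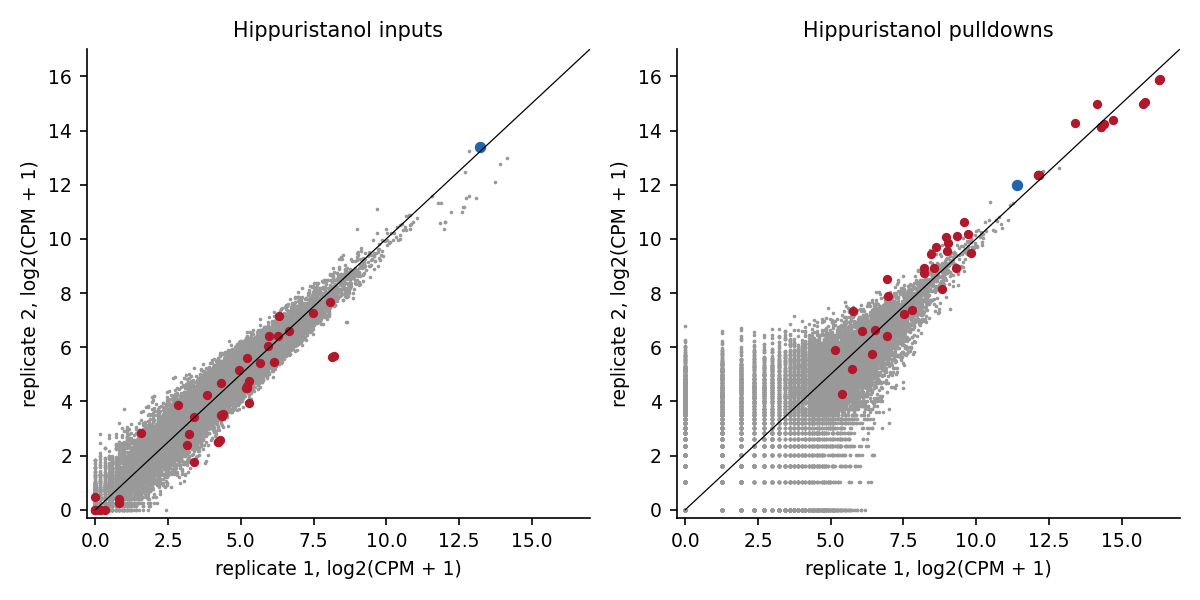
Replicate 1 against replicate 2 of the hippuristanol inputs (left) and pulldowns (right), as log2(CPM + 1), 1 point per tested ID, with IDs called higher in red, the ID called lower in blue and the line of equality. The inputs lie close to the line throughout (r = 0.921 over 4369 IDs), whereas the pulldowns spread widely at low levels (r = 0.740), with many IDs at 0 in replicate 1.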

How the data were processed

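Inputs and streptavidin pulldowns of HEK293T cells were sequenced from directional libraries. The deposited values are raw counts per versioned Ensembl gene ID. Per the submitters' processing notes, cutadapt, HISAT2, featureCounts and GRCh38 were used by the authors; no version or strand setting is given in the sources used here. Floors cover counting error only, since the labels name no molecular identifiers. Groups came from sample titles. The column name of the DMSO input stands in the descriptions of 2 samples and was read by the table it is in.

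The 17 stress-table libraries entered one edgeR 4.0.16 fit (R 4.3.3) with a mean per group, after filterByExpr and TMM. The test was the robust quasi-likelihood F test with Benjamini-Hochberg adjustment over 16678 IDs. A standard error is the log2 fold change over the square root of F, and log2 CPM used a prior count of 2. The naive table was fitted likewise. The procedure was also run on simulated counts in which inputs and pulldowns had equal means, apart from changes added to the hippuristanol pulldowns. The real stress-table inputs and pulldowns differ far more in make-up. That run therefore does not show how the procedure performs on them. Alternatives used DESeq2 1.42.0, limma 3.58.1, and other scalings, filters, sets of libraries and a replicate block. The scope, members and lists were chosen with earlier results of these data known. The named-gene rule and the gene lists needed symbols and could not be applied. For IDs without symbols the rule allows at most 2 in each direction. Those named are the largest fold change and the highest mean input level among higher calls, and the lower call. The last is the lowest fitted fold change among IDs with at least 20 CPM in an input. All were chosen after their values were seen. The chi-square per ID between replicates was 11.4 for hippuristanol pulldowns and 31.1 for inputs, so no pair agreed within sampling noise.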

Additional observations from a re-analysis of the deposited data

Results flagged for a closer look

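ENSG00000278597.1 was higher in both hippuristanol pulldowns than in the inputs (log2 fold change 12.22) and, with TMM scaling, lower in both naive eIF4A pulldowns than in their inputs (-0.59). The opposite directions hold with TMM and not with library size, which gives a naive log2 fold change of 0.22. The difference was not tested, since the tables were scaled separately. ENSG00000134153.8 was at 0 in both hippuristanol pulldowns, below both inputs, whereas both DMSO pulldowns lay above the single DMSO input (log2 fold change 0.28 ± 1.23, SE). The difference in enrichment had an edgeR adjusted p of 0.902, and the ID had been chosen for its low hippuristanol fold change.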

How the results depend on the processing

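The 42 calls for hippuristanol pulldown over input became 199 with DESeq2 (161 higher, 38 lower), 129 with limma voom and sample quality weights (113 and 16), 89 without a count filter (81 and 8), 75 with only the 4 libraries (66 and 9) and 122 with a replicate block (84 and 38). Same-numbered hippuristanol inputs and pulldowns deviated together with a correlation of 0.126 over 4369 IDs, and T0 and T20 gave 0.0851 and -0.00381, so the numbers were not taken as pairs. DESeq2 and the block kept all 42, the 4-library fit 40, the fit without a filter 39 and limma voom 36. With library size the count was 56, of which 57.1% were higher against 97.6% with TMM, and 33 were shared. Leaving out 1 library gave 28 to 32 calls. Without 11 IDs above 1% of a hippuristanol pulldown, a setting chosen after seeing the data, 30 were called, all among the 42. Against T0, T20 and DMSO, the 0 calls became 3, 2 and 23 with DESeq2 and 1, 1 and 41 with the replicate block. For DMSO, leaving out 1 library gave 0 to 3 calls, with 1 when the first DMSO pulldown and 3 when the second was left out. Leaving out the only DMSO input allows no fit. The naive eIF4A count of 271 became 3940 with library size, and 88 to 150 with 1 library left out. The cause of these shifts was not tested. ENSG00000278597.1 was called in all 12 settings that held it (log2 fold change 11.75 to 12.70), ENSG00000103202.11 in 8 of 13 (1.30 to 1.99), ENSG00000202198.1 in 4 of 13 (-2.04 to -1.32) and ENSG00000134153.8 in 2 of 12 (-9.99 to -5.44); no direction of these hippuristanol values turned. The naive eIF4A value of ENSG00000278597.1 did, from -0.59 with TMM to 0.22 with library size. Gene-list alternatives were not run, for lack of symbols. Depth limits the pulldowns, where the median tested ID had 8 and 15 counts.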

Other observations

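Some summaries over all IDs had different values under hippuristanol and in the other stress-table conditions, and these differences were not tested. An unadjusted edgeR p under 0.05 was reached by 5.76% of tested IDs under hippuristanol, 10.7% at T0, 13.2% at T20 and 12.9% in DMSO. The hippuristanol share depended on the libraries fitted and was 10.3% when only the 4 libraries were fitted. It fell without either input or without pulldown replicate 1 and rose without pulldown replicate 2. Such fits leave 1 library in a group, so a change in the share cannot be laid to the library left out. They were not run for the T0, T20 and DMSO shares. Over 4336 uncalled IDs that averaged 5 or more in log2 CPM, 10.01% had a log2 fold change below -1 under hippuristanol, against 18.1%, 16.4% and 17.3%. Above 1 were 5.35% under hippuristanol, against 3.90%, 8.86% and 6.30%. The correlation of the mean pulldown level with the mean input level was 0.774, 0.758, 0.699 and 0.694 in the same order. Replicate pulldowns correlated under hippuristanol at 0.740 over 4369 IDs against 0.601 at T0, 0.671 at T20 and 0.543 in DMSO. Of IDs with at least 20 CPM in the inputs, 2 of 7082 were at 0 in both hippuristanol pulldowns, 39 of 6583 at T0, 32 of 7077 at T20 and 91 of 7544 in DMSO, where 1 input set the level.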
